A study of Mus musculus with 4 samples.

Results

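A group of 10 genes of 18193 that encode transcription factors of cartilage was examined in growth plate cartilage with and without Ift88, a gene of the transport machinery that builds the primary cilium. They are the SOX trio Sox5, Sox6 and Sox9, the repressors Trps1, Nkx3-2 and Zbtb20, the Runt-domain factors Runx1 and Runx3, the forkhead factor Foxa2 and the calcium-responsive factor Nfatc1. Their members are the 42 probe sets, of 45037 on the array, whose platform symbol is exactly one of these names. The study compared chondrocytes of the proliferative zone, the part of the growth plate where cells divide, from 2 wild-type control samples and 2 samples of Col2aCre;Ift88fl/fl mice, labelled Ift88-deleted, all from the C57BL/6 background at postnatal day 7. The Cre is named for Col2a, the cartilage collagen gene. Which cells lost Ift88, and whether other cells of the limb did too, was not measured here. The zone was cut with a needle from 40 µm sections of tibia and femur, and 50 ng of total RNA per sample was amplified in 2 rounds from oligo-dT primers, labelled and hybridised to an Affymetrix mouse array. The design calls the samples biological replicates and does not say how many animals went into each.

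SOX9 is the factor without which cartilage does not form. SOX5 and SOX6 lack an activation domain of their own and bind with SOX9 at the enhancers of matrix genes such as Col2a1 and Acan. Around this trio, NKX3-2 and TRPS1 hold back the maturation of dividing chondrocytes, while RUNX and FOXA factors and ZBTB20 act as the cells turn hypertrophic. The primary cilium passes on the Hedgehog signals that set the pace of that step. The arrays compare cartilage of Ift88-deleted and control mice, and cilia were not measured here.

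No probe set of these factors passed the test for a difference between the groups. In limma's moderated test with Benjamini-Hochberg adjustment over all 45037 probe sets, 0 of the 42 had an adjusted p under 0.05, where 20 probe sets on the whole array did (0.0444% of those tested). Xist, Eif2s3y, Kdm5d and Uty, genes of the X and Y chromosomes, had probe sets among the 20, and sex went along with genotype in these arrays. At an unadjusted p under 0.05 there were 3 of the 42, 2 higher and 1 lower, against 2780 on the array (6.17%, with 3% higher and 3.18% lower). Their adjusted p values ran from 0.689 to 1. Each value is the log2 signal of a probe set relative to its median over the 4 arrays, so it gives differences and no level, and a difference of 1 is a 2-fold change. The median of the 42 differences, Ift88-deleted minus control, was 0.04, with a lowest of -0.53 and a highest of 0.66, beside a median of 0.00 over all probe sets. With 2 arrays against 2, the smallest p of an exact permutation test on one probe set is 0.333, and the tests below therefore borrow the spread of all probe sets.

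A p that misses the threshold does not show that these genes did not differ, and the intervals say how large a difference the data leave possible. The 95% interval of the difference, not adjusted for the number of probe sets, lay within 2-fold in either direction for 37 of the 42, and within 0.5 in either direction for 12. The other 5 were Runx1 1440878_at, Runx3 1440275_at and the Zbtb20 probe sets 1422064_a_at, 1437066_at and 1437598_at. On simulated data with as many probe sets and a like spread, the same fit called 0.6% of 2-fold and 71.3% of 4-fold changes, so a true 2-fold change would seldom be called here. Ift88-deleted and control arrays did not overlap in 15 of the 42 probe sets, 9 higher and 6 lower, beside 33.6% of all probe sets (16.2% higher and 17.4% lower). The share of these factors is close to the background and is no result about them.

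**Figure D1:**
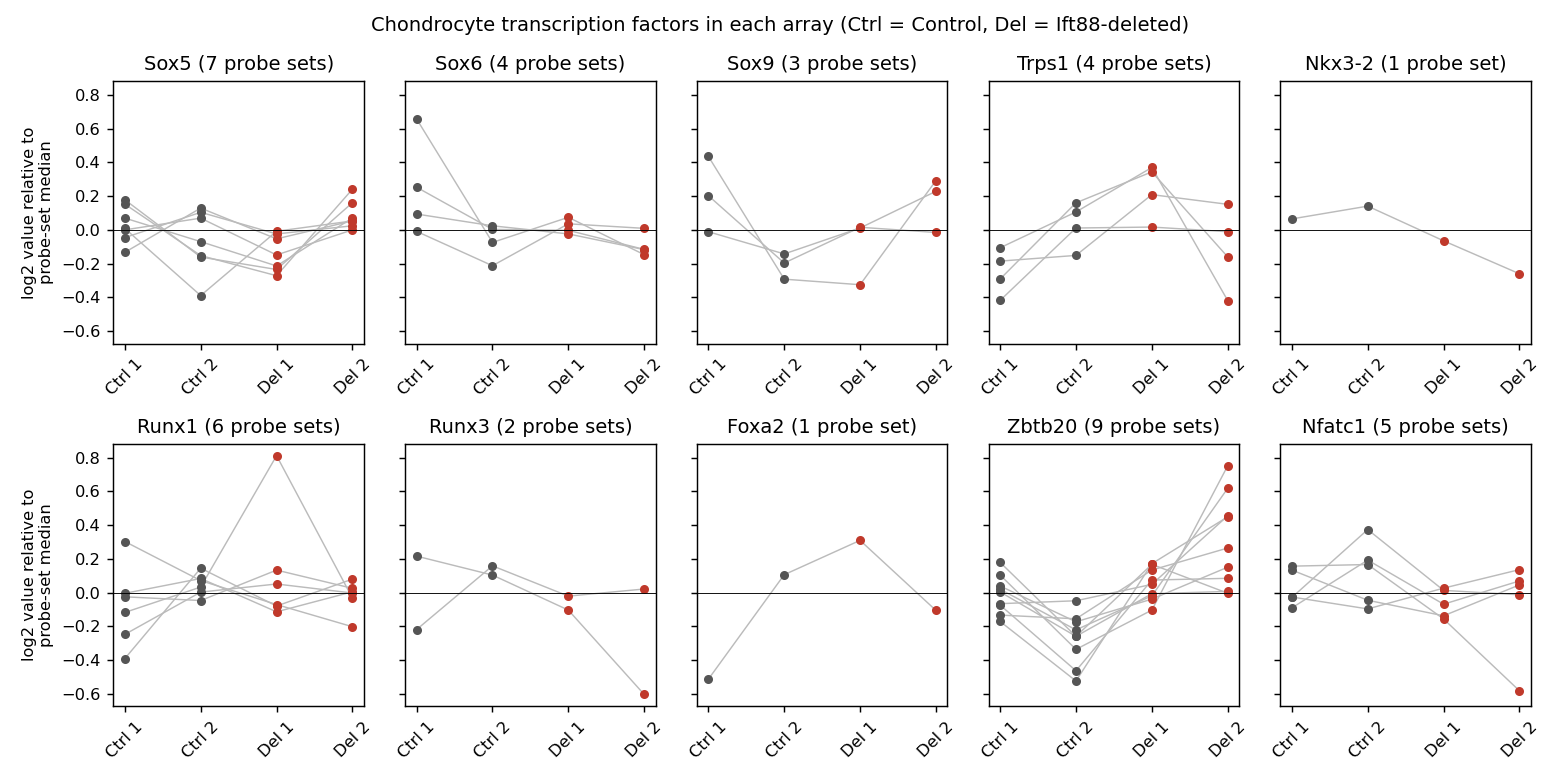
Log2 value of each member probe set relative to its median over the 4 arrays (y axis) in each array (x axis), 1 panel per gene, with grey points for control, red for Ift88-deleted and a line per probe set. The groups overlap in 27 of the 42 probe sets, and all 9 Zbtb20 probe sets have a higher mean in the Ift88-deleted arrays.

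The spread between samples of one group was as large as the difference between groups. The median size of the group difference over the 42 probe sets was 0.15, against a median gap of 0.25 between both control arrays and of 0.15 between both Ift88-deleted arrays. Over all probe sets these medians were 0.13, 0.22 and 0.15. In 10 of the 42 (23.8%) the group difference exceeded both gaps, as in 21.8% of all probe sets.

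The signal of each of these 42 probe sets could be placed in a coarse class. The single-precision steps of the deposited values were used to place the lowest original value of a probe set at 8 or more, 4 to 8, or 2 to 4. This is on the scale before the median was subtracted. The placing can err upward, since values can lie on a coarser step by chance. Of the brightest class 21.9% also lay on the next coarser step, which was taken as chance. Of the 42 probe sets 26 fell in the brightest class, 15 in the middle and 1, of Runx1, in the dimmest, where 32.2%, 50.6% and 16.4% of all probe sets did. The class is not a level. The brightest class held all 4 probe sets of Trps1, 8 of 9 of Zbtb20, 4 of 7 of Sox5, 3 of 4 of Sox6, 2 of 3 of Sox9, 2 of 6 of Runx1, 2 of 5 of Nfatc1 and 1 of 2 of Runx3. The single probe sets of Nkx3-2 and Foxa2 were in the middle class.

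Several properties of the arrays hold beside each value below, and some of them run along with the groups. Ift88 itself had a log2 difference of 0.08 (95% interval -0.30 to 0.46), and whether its probe set covers the deleted exons was not determined, so this value is no check of the deletion. Xist, the RNA of the inactive X chromosome, was at 3.58 and 3.74 in the controls and at -3.79 and -3.61 in the Ift88-deleted arrays, so genotype and sex, as this gene shows it, cannot be told apart. The values of control 1 had the widest spread over probe sets (SD 0.289, against 0.173 to 0.223 in the others). All 8 skeletal muscle markers had differences below 0, 4 of them with groups apart, and 0 passed as gene means, with medians of 0.10 and 0.31 in the controls and -0.04 and -0.09 in the Ift88-deleted arrays. Over all 18193 genes 9433 lay below 0, and 33.3% had groups apart (14.7% higher and 18.6% lower). That share stands beside each count of markers here and below. The muscle markers furthest apart were the troponin gene Tnni2 (-1.96, limma adjusted p = 0.0673), of which 1 probe set passed by itself (-3.17, limma adjusted p = 0.0416), and the myosin light chain gene Mylpf (-1.05). The difference between 3′ and 5′ control probe sets, a sign of RNA length, was lower with groups apart for Actb (-0.15) and 18S (-0.23). The groups overlapped for the other control genes, Gapdh (-0.18), Tfrc (-0.06) and Pcx (-0.04). All 6 chondrocyte markers had values, 0 passed, 3 had groups apart (Matn1 and Col9a1 higher, Hapln1 lower) and their median difference was 0.07, but without levels their presence cannot be read from these values. Of the 6 endothelial markers 0 had groups apart, and of the 2 measured Schwann cell markers 1, S100b, was lower with groups apart (-0.36). The part of the muscle markers and of RNA length in the values below was not tested. In pieces of tissue, fewer cells of a type and less RNA per cell cannot be told apart.

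Short stretches around the starts of some of these genes hold the letters that SOX or RUNX factors read. RefSeq windows of 300 bases (GRCm38.p6, 250 before and 50 after a transcript start) were at hand for 7 of the 10 members, 16 windows in all. Each motif was searched on both strands. The SOX motif ACAATGG was found in 1 of the 16, that of Sox5, and in 3.66% of all 32851 windows. The RUNX motif TGTGGT was found in 5 windows, of Sox6, Runx1, Runx3 and Zbtb20, and in 16.8% of all. The longest run of bases that a Runx1 and a Runx3 window share, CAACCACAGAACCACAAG, holds the RUNX motif 2 times on the other strand. This run was searched after the windows had been read, and it occurs in 4 of all 32851 windows (0.0122%), those of Runx1 and Runx3 included. The GLI motif GACCACCCA was in none of the 16 windows and in 0.253% of all. A match is a run of letters and no evidence of binding. The stretches that follow are shown because Sox5, Runx1 and Runx3 carry in them the motif of their own family. Capitals mark the SOX motif in Sox5 and the shared run in Runx1 and Runx3.
Sox5, chr6:143947242-143947271, minus strand, first capital at -154 from the start: actgaagagacACAATGGttgtgaatactt
Runx1, chr16:92826025-92826054, minus strand, first capital at 27 after the start: cataaaCAACCACAGAACCACAAGttgggt
Runx3, chr4:135120503-135120532, plus strand, first capital at -136 from the start: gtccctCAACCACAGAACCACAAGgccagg

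Sox9 showed no difference between the groups beyond the spread within them. The gene (chromosome 11, 112782210 to 112787757, GRCm38.p6) encodes the activator that sets and keeps chondrocyte identity, and 3 probe sets name it. Probe set 1424950_at stood at -0.01 and -0.14 in the controls and 0.01 and 0.23 in the Ift88-deleted arrays, just apart. Probe set 1433889_at stood at 0.20 and -0.20 in the controls and 0.02 and -0.02 in the Ift88-deleted arrays, within the range of the controls. Probe set 1451538_at stood at 0.44 and -0.29 in the controls and -0.33 and 0.29 in the Ift88-deleted arrays, so each group held a high and a low array. The mean over the 3 probe sets differed by 0.04 (SE 0.19, 95% interval -0.43 to 0.50, n = 2 per group), that is from 0.74-fold to 1.42-fold. Its sign turned when control replicate 2 (-0.17) or Ift88-deleted replicate 2 (-0.10) was left out.

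Sox5 was the member with the smallest difference of its gene mean. The gene (chromosome 6, 143828425 to 144782287) encodes a DNA-bending partner of SOX9, and the groups overlapped in all 7 of its probe sets. The mean over the 7 was 0.03 and -0.07 in the controls and -0.14 and 0.09 in the Ift88-deleted arrays, so the Ift88-deleted arrays enclosed the controls. It differed by -0.01 (SE 0.141, 95% interval -0.36 to 0.34). Single probe sets differed by -0.11 (1432189_a_at) to 0.21 (1455535_at). The latter was low in control 2 alone, at -0.39, against 0.01 in control 1 and -0.01 and 0.05 in the Ift88-deleted arrays. For 1423500_a_at, 1432190_at and 1440827_x_at, control 2 and Ift88-deleted 1 were the low arrays, 1 of each group.

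Sox6, the close relative of Sox5 (chromosome 7, 115470872 to 116040776), had 1 probe set higher and 2 lower with groups apart, and its gene mean differed by -0.13 (SE 0.156, 95% interval -0.51 to 0.26). Probe set 1427677_a_at stood at -0.01 and -0.21 in the controls and 0.04 and 0.01 in the Ift88-deleted arrays. Probe set 1434918_at stood at 0.25 and 0.00 in the controls and 0.00 and -0.12 in the Ift88-deleted arrays, and 1447655_x_at went the same way (difference -0.13). The largest difference, -0.33 for 1426018_a_at, came with the groups overlapping and rested on control 1, which was at 0.66 against -0.07 in control 2 and 0.07 and -0.15 in the Ift88-deleted arrays. Without control replicate 1 that probe set was at 0.04 and the gene mean at 0.03.

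Trps1, a GATA-type zinc finger repressor of the prehypertrophic and dividing zones (chromosome 15, 50654757 to 50890631), had 1 of 4 probe sets with groups apart. Probe set 1438214_at stood at -0.19 and -0.15 in the controls and 0.21 and 0.15 in the Ift88-deleted arrays. These replicates lay close together, 0.03 and 0.06 apart, and the difference was 0.35 (SE 0.136, 95% interval 0.0086 to 0.69, unadjusted p = 0.0461, limma adjusted p = 0.803). The other 3 overlapped, with differences of -0.02 (1434286_at), 0.21 (1449530_at) and 0.16 (1457445_at). In 1434286_at the Ift88-deleted arrays lay farthest apart, at 0.37 and -0.42, around controls at -0.11 and 0.11. The gene mean differed by 0.17 (SE 0.178, 95% interval -0.27 to 0.61), and its sign turned, to -0.00030, with Ift88-deleted replicate 1 left out.

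Nkx3-2, a homeobox repressor induced by Hedgehog signals in the embryo (chromosome 5, 41761483 to 41764220), was lower in both Ift88-deleted arrays. Its probe set, 1421464_at, stood at 0.06 and 0.14 in the controls and -0.06 and -0.26 in the Ift88-deleted arrays. The difference was -0.27 (SE 0.149, 95% interval -0.64 to 0.11, limma adjusted p = 0.879), which did not pass. The difference ran from -0.36 to -0.17 with each array left out, where groups that do not overlap cannot change sign. For the Hedgehog readouts Gli1 and Ptch1, the gene means in the same arrays differed by -2.62 and -1.62. Neither gene mean passed (limma adjusted p = 0.0673 and 0.0683 over all genes). A probe set of Ptch1 passed by itself (difference -2.15, limma adjusted p = 0.0416 over all probe sets).

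Zbtb20, a BTB zinc finger repressor that acts in hypertrophic chondrocytes and in other tissues (chromosome 16, 42875689 to 43634392), was the member with the largest difference of its gene mean. All 9 of its probe sets had differences above 0, 4 of them with groups apart, and none passed. Over all 45037 probe sets 22759 lay above 0, and 33.6% had groups apart (16.2% higher). The mean over the 9 was -0.01 and -0.27 in the controls and 0.05 and 0.31 in the Ift88-deleted arrays, which lay apart. It differed by 0.32 (1.25-fold, SE 0.163, 95% interval -0.08 to 0.72, limma adjusted p = 0.888 over all genes), and by 0.19 to 0.45 with 1 array left out, lowest when either replicate 2 was. The 9 probe sets were measured on the same 4 RNA samples and are not 9 independent observations.

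Among them, 1437598_at had the largest difference of all 42 probe sets. It stood at -0.17 and -0.52 in the controls and 0.17 and 0.45 in the Ift88-deleted arrays, a difference of 0.66 (1.58-fold, SE 0.191, 95% interval 0.18 to 1.14, unadjusted p = 0.0159, limma adjusted p = 0.689). With 1 array left out it ran from 0.48 to 0.84. The others with groups apart, 1437065_at, 1438443_at and 1451577_at, differed by 0.34, 0.31 and 0.35. In the other 5 the groups overlapped, since control 1 lay above at least 1 of the Ift88-deleted arrays. Ift88-deleted 2 stood far above the rest in 1422064_a_at (0.75) and 1437066_at (0.62), and control 2 was the lowest array in all 9 probe sets but 1438443_at.

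**Figure D2:**
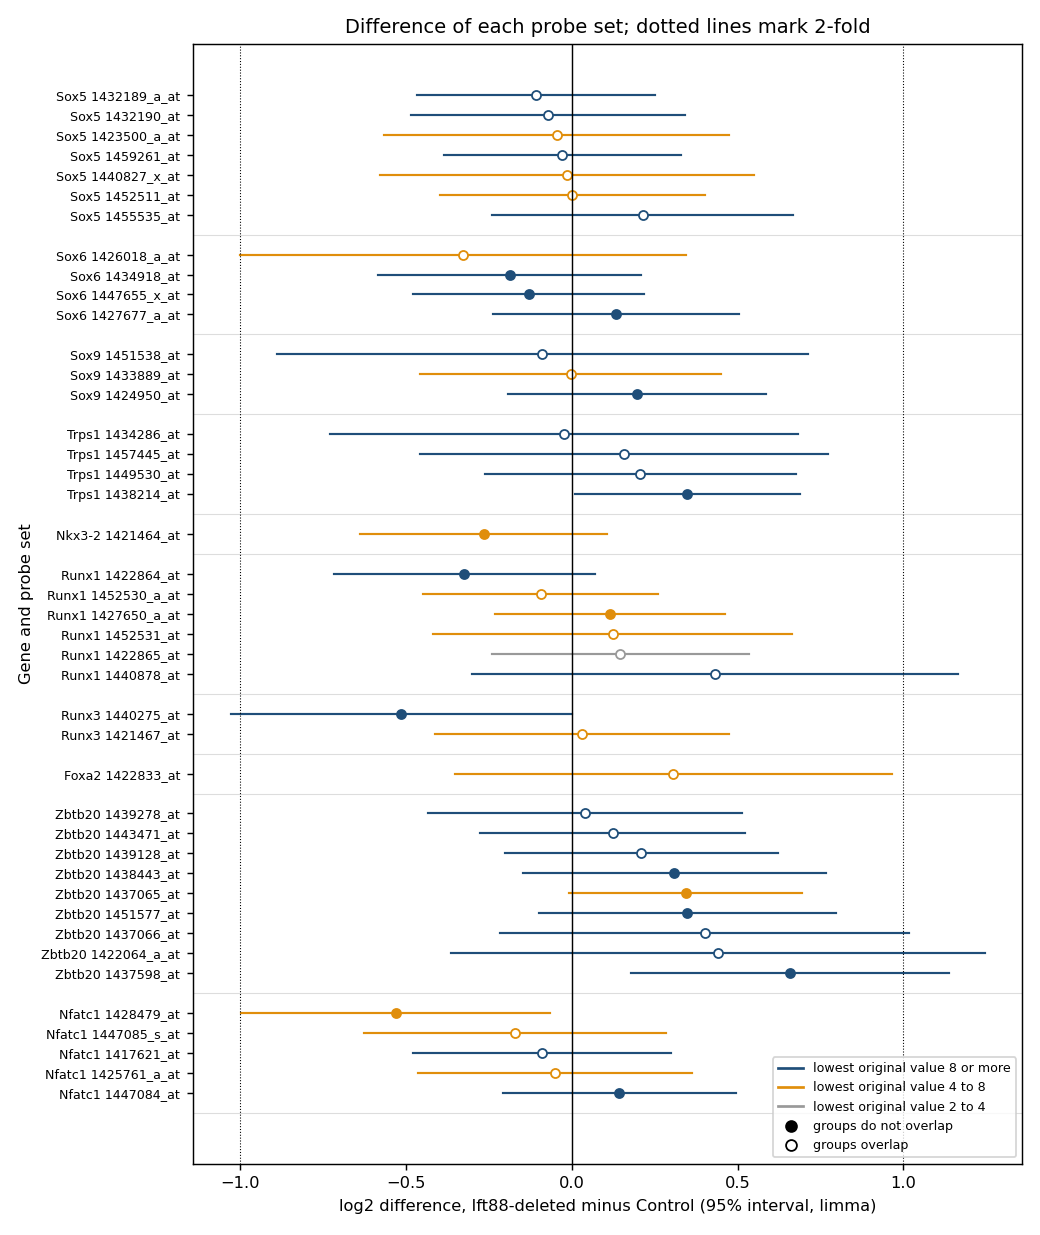
Log2 difference of each of the 42 probe sets, Ift88-deleted minus control (x axis, with limma's 95% interval), by gene and probe set (y axis), coloured by the class of the lowest original value; filled points mark groups that do not overlap. Of the 42 intervals 37 lie between the dotted lines at 2-fold, and the 9 Zbtb20 points are all right of 0.

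The Runt-domain factors Runx1 and Runx3, which act in cartilage and in blood cells, each held a probe set lower with groups apart. Runx1 (chromosome 16, 92601466 to 92826074) had 6 probe sets that went both ways. Probe set 1422864_at stood at 0.30 and 0.07 in the controls and -0.07 and -0.20 in the Ift88-deleted arrays (difference -0.32, SE 0.157, limma adjusted p = 0.854). Probe set 1440878_at stood at -0.12 and 0.03 in the controls and 0.81 and -0.03 in the Ift88-deleted arrays. That value was high in Ift88-deleted 1 alone, and the difference of 0.43 was 0.01 without that array. Probe set 1427650_a_at was higher with groups apart, by 0.12. The probe sets of Runx1 differed among themselves by up to 0.76, the widest spread of any member, and the gene mean differed by 0.07 (SE 0.134, 95% interval -0.26 to 0.40).

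Runx3 (chromosome 4, 135120645 to 135177990) had 2 probe sets that did not show the same pattern. Probe set 1440275_at stood at 0.22 and 0.10 in the controls and -0.10 and -0.60 in the Ift88-deleted arrays. The difference was -0.51 (1.43-fold lower, SE 0.205, 95% interval -1.03 to 0.00025, limma adjusted p = 0.808), and Ift88-deleted 2 carried much of it, with -0.26 when that array was left out. Probe set 1421467_at stood at -0.22 and 0.16 in the controls and -0.02 and 0.02 in the Ift88-deleted arrays, a difference of 0.03. The gene mean differed by -0.24 (SE 0.144, 95% interval -0.60 to 0.11). For the 6 measured blood and marrow markers, where RUNX factors also act, 0 had groups apart and the median difference was -0.01.

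Foxa2, a forkhead pioneer factor of hypertrophic chondrocytes (chromosome 2, 148042877 to 148046969), had 1 probe set, 1422833_at. It stood at -0.51 and 0.11 in the controls and 0.31 and -0.11 in the Ift88-deleted arrays, so the groups overlapped and control 1 alone was low. The difference of 0.31 (SE 0.263, 95% interval -0.35 to 0.97, limma adjusted p = 0.948) was -0.0042 without control replicate 1.

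Nfatc1, which calcineurin sends to the nucleus and which drives osteoclast formation, had 5 probe sets, on a gene of chromosome 18. Probe set 1428479_at was the 1 lower probe set of the 42 with an unadjusted p under 0.05. It stood at 0.16 and 0.17 in the controls and -0.16 and -0.58 in the Ift88-deleted arrays, a difference of -0.53 (1.45-fold lower, SE 0.186, 95% upper bound -0.065, unadjusted p = 0.0323, limma adjusted p = 0.765). Another, 1447084_at, was higher with groups apart by 0.14, and the other 3 overlapped. The gene mean was 0.03 and 0.12 in the controls and -0.06 and -0.07 in the Ift88-deleted arrays, apart, with a difference of -0.14 (SE 0.124, 95% interval -0.45 to 0.17). The median of the 10 osteoclast markers was -0.17 and 0.26 in the controls and -0.19 and 0.14 in the Ift88-deleted arrays, and 1 of the 10, Ocstamp (-0.30), had groups apart. Of the 10 markers 7 lay below 0 and 3 above, the latter Itgb3 (0.34), Dcstamp (0.10) and Oscar (0.03). The lowest were Acp5 (-1.36), Mmp9 (-1.17) and Ctsk (-0.72), named after their values were seen, with groups overlapping. Their control 2 values were the highest (1.84, 2.46 and 1.56), while control 1 lay below 0. The part of osteoclasts in the Nfatc1 values was not tested.

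Over the gene means, 0 of the 10 factors passed, where 2 of 18193 genes did (0.011%). Those 2 were Xist and Eif2s3y, on the X and Y chromosomes, for which sex and genotype cannot be told apart. Of the 10 factors 4 had groups apart, against 33.3% of all genes (14.7% higher and 18.6% lower). Zbtb20 was the 1 higher and Nkx3-2, Runx3 and Nfatc1 the 3 lower. In order of their differences the genes ran from Nkx3-2, Runx3, Nfatc1, Sox6 and Sox5 to Sox9, Runx1, Trps1, Foxa2 and Zbtb20, and the interval of each held 0. The median of the 10 was 0.01, and all 10 intervals lay within 2-fold.

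**Figure D3:**
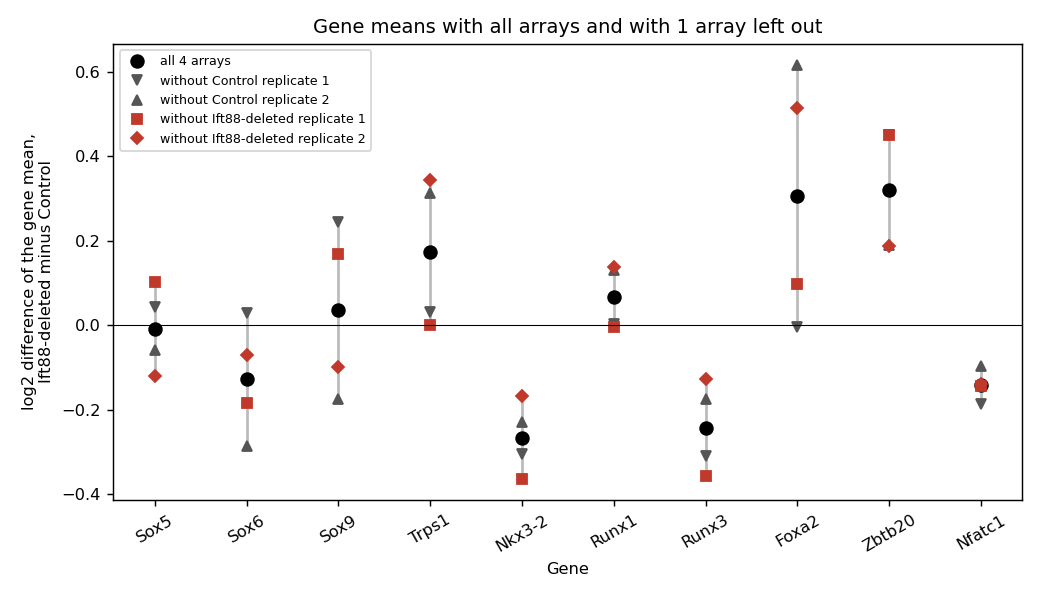
Log2 difference of each factor's gene mean, Ift88-deleted minus control (y axis), by gene (x axis), with all 4 arrays (black circles) and with 1 array left out (triangles for controls, squares and diamonds for Ift88-deleted). Nkx3-2, Runx3, Zbtb20 and Nfatc1 keep their sign, as they must because their groups do not overlap, while the other 6 genes take both signs.

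The matrix genes that SOX9, SOX5 and SOX6 switch on held members on both sides. Of 17 such genes 0 passed over all genes (0.011% of which did), 11 lay above 0 and 6 below, and 1 in each direction had an unadjusted p under 0.05, against 5.96% of all genes (2.29% higher and 3.68% lower). Their median difference was 0.04, beside -0.01 over all genes. The type II collagen gene Col2a1 (0.25, SE 0.176), the aggrecan gene Acan (0.00, SE 0.122) and the type IX collagen gene Col9a1 (0.13, SE 0.138) had intervals that held 0. Ucma, a cartilage gene of the upper growth plate, stood at -0.93 and -0.35 in the controls and 0.56 and 0.35 in the Ift88-deleted arrays, a difference of 1.09 (SE 0.216, limma adjusted p = 0.424). Comp, a matrix glycoprotein, was at 0.23 and 0.14 in the controls and -0.14 and -0.58 in the Ift88-deleted arrays (difference -0.54). Snorc (-0.29) was lower and Matn1 (0.24) higher, both with groups apart.

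Partners and relatives of the factors were measured for 27 of the 30 genes listed, and 0 passed, where 0.011% of all genes did. Of them 17 lay above 0 and 10 below, with a median of 0.07. The groups were apart in 10 (37.0%), 7 higher and 3 lower, a share near the 33.3% of all genes. Cbfb, the shared partner of the RUNX proteins, differed by -0.02 (SE 0.141), and Foxa3, which acts with Foxa2, by 0.08 (SE 0.145). Sox8, the close relative of Sox9, stood at -0.13 and -0.60 in the controls and 0.14 and 0.13 in the Ift88-deleted arrays (difference 0.50, SE 0.182, limma adjusted p = 0.820). The corepressor genes Runx1t1 (0.46) and Tle3 (0.39) were higher with groups apart, and the calcineurin subunit gene Ppp3r1 (-0.30) was lower.

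Of 31 other skeletal transcription factors 0 passed, where 0.011% of all genes did, and 17 lay above 0 and 14 below. The groups were apart in 15 (48.4%), 9 higher and 6 lower, beside 33.3% of all genes (14.7% higher and 18.6% lower). Snai2, a zinc finger repressor, stood at -0.29 and -0.68 in the controls and 0.29 and 0.51 in the Ift88-deleted arrays (difference 0.88, SE 0.181, limma adjusted p = 0.442). The osteoblast-lineage homeobox gene Dlx5 went the other way, at 0.65 and 0.23 in the controls and -0.23 and -0.59 in the Ift88-deleted arrays (difference -0.85, SE 0.203, limma adjusted p = 0.583). Sp7, the osteoblast zinc finger factor (-0.54), and Twist1, a mesenchymal bHLH factor (-0.46), were also lower with groups apart. Mef2c, which drives hypertrophy, differed by -0.13 (SE 0.145). Of the 7 measured osteoblast and perichondrium markers, of which Sp7 is one, 2 (28.6%), Sp7 and the osteocyte matrix gene Dmp1 (-0.72), were lower with groups apart, a share near the 33.3% of all genes. The median of the 7 was -0.21 and 0.28 in the controls and 0.61 and -0.65 in the Ift88-deleted arrays. The part of these cells in the Dlx5 and Sp7 values was not tested.

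Hypertrophy genes under RUNX and FOXA factors varied widely between arrays of one group. The widest was Mmp13, the collagenase of late hypertrophic cells, named here after its values were seen, at -0.75 and 2.45 in the controls and -0.30 and 0.30 in the Ift88-deleted arrays. Of the 10 measured genes 0 passed, where 0.011% of all genes did, and 3 (30%) had groups apart, near the 33.3% of all genes. Of the 10, 5 lay above 0 and 5 below, and their median was -0.11 and 0.12 in the controls and 0.33 and -0.40 in the Ift88-deleted arrays. Col10a1, the collagen of hypertrophic cells, differed by 0.13 (SE 0.379), and Ihh, the Hedgehog ligand of the growth plate, by 0.17 (SE 0.325), each high in Ift88-deleted 1 and low in Ift88-deleted 2. Pth1r, the receptor that keeps chondrocytes dividing, was higher with groups apart (0.40, SE 0.185, limma adjusted p = 0.880). Sgms2 (-0.90) and Vegfa (-0.22) were lower with groups apart, and did not pass. Without Ift88-deleted replicate 1 Sgms2 stood at -1.35 (limma adjusted p = 0.0314), where the Ift88-deleted arm is 1 array whose own spread is not measured and is assumed to be like that of the controls.

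**Figure D4:**
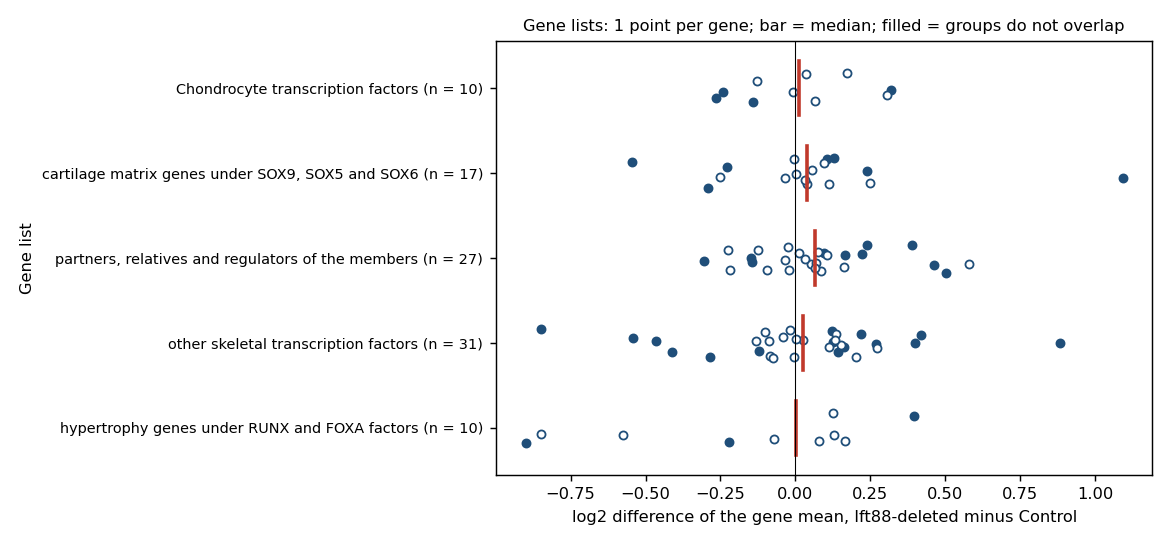
Log2 difference of each gene mean, Ift88-deleted minus control (x axis), for the chondrocyte transcription factors and 4 related gene lists (y axis), with 1 point per gene, filled where the groups do not overlap, and a red bar at the list's median. The 10 factors span -0.27 to 0.32, and the medians of the lists lie between 0.00 and 0.07.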

How the data were processed

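Per the submitters' processing notes, the deposited values come from RMA, with no version given, and are taken as log2: the base is not stated and was inferred from the single-precision steps of the values. In the deposited table each probe set's median over the 4 arrays is 0 (largest departure 5e-07), so levels are lost. The background correction and normalization could not be redone, and signal over background was not measured. The number of arrays limits the precision. No filter was used. The 64 control probe sets were left out, and 45037 were fitted in limma 3.58.1 (R 4.3.3) on the group alone, with eBayes without trend and Benjamini-Hochberg adjustment over all at a threshold of 0.05. Gene means average the probe sets that name 1 gene (34945 probe sets, 18193 genes, of which 34741 probe sets took their symbol from RefSeq GRCm38.p6) and were fitted likewise. Tested on simulated data (10 draws), the fit made a mean of 3 false calls. Each member is named, and of each list the 4 genes with groups apart and the largest difference (2 for markers, summed levels being lost) and fixed genes. No member reached a difference of 1, so no genes of like pattern were named. The members and lists were chosen with earlier results of these data known. Alternatives were other scaling, moderation, thresholds, summaries, a replicate block, filters and each array left out. A gene counted as called where any of its probe sets was, an alternative chosen after seeing the data.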

Additional observations from a re-analysis of the deposited data

How the results depend on the processing

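Under every setting run, 0 of the 42 probe sets of the factors passed at an adjusted p of 0.05 or 0.1, with adjusted p values from 0.261 to 1 (3 of the 42 had an unadjusted p under 0.05), and 19 kept their sign throughout. The count over all probe sets, 20, was 2 without moderation, 11 against a log2 difference of 0.5, 5 with X and Y left out, 2 for gene means and 9 to 12 with 1 array left out. With the replicate number as a block it was 5; the numbers are only names (deviations of same-numbered arrays correlated at 0.10 over probe sets), and the block changed no call of the factors. The probe sets with groups apart, 15, were 4 as gene means and 23 to 32 with 1 array left out, where 3 arrays make overlap rarer. Groups apart with all 4 arrays must stay apart, and keep their sign, when 1 array is left out. The median of the 42 differences ran from 0.020 to 0.066 with 1 array left out. Of the hypertrophy list 0 to 1 passed with 1 array left out. Renewed quantile normalization turned the sign of Sox5 1452511_at (-0.030), Sox9 1433889_at (0.039), Trps1 1434286_at (0.030) and Runx3 1421467_at (-0.012). The gene mean had the opposite sign for Sox5 1452511_at and 1455535_at (-0.0080), Sox6 1427677_a_at (-0.13), Sox9 1433889_at and 1451538_at (0.035), Trps1 1434286_at (0.17), Runx1 1422864_at and 1452530_a_at (0.067), Runx3 1421467_at (-0.24) and Nfatc1 1447084_at (-0.14). The cause was not tested.

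With 1 array left out the differences that turned ran as follows. For Sox5, 1423500_a_at ran from -0.24 to 0.15, 1432190_at from -0.21 to 0.071, 1440827_x_at from -0.27 to 0.24, 1452511_at from -0.13 to 0.13, 1459261_at from -0.10 to 0.046 and the gene mean from -0.12 to 0.10. For Sox6, 1426018_a_at ran from -0.69 to 0.038 and the gene mean from -0.29 to 0.029. For Sox9, 1433889_at ran from -0.20 to 0.20, 1451538_at from -0.45 to 0.28 and the gene mean from -0.17 to 0.25. For Trps1, 1434286_at ran from -0.42 to 0.37, 1449530_at from -0.0081 to 0.42, 1457445_at from -0.095 to 0.41 and the gene mean from -0.00030 to 0.34. For Runx1, 1452531_at ran from -0.14 to 0.39 and the gene mean from -0.0050 to 0.14. Runx3 1421467_at ran from -0.16 to 0.22, Foxa2 from -0.0042 to 0.62 and Zbtb20 1439278_at from -0.18 to 0.26. For Nfatc1, 1417621_at ran from -0.18 to 0.0015, 1425761_a_at from -0.19 to 0.091 and 1447085_s_at from -0.37 to 0.029.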
